A study of Mus musculus with 5 samples.

Results

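Interleukin-6, its receptor chains and 4 acute phase genes were followed across mouse peritoneal cells. The 7 genes were Il6, Il6ra, Il6st, Saa3, Hp, Lcn2 and Orm1, taken by symbol from the 22815 rows of the deposited expression table, and all 7 were found. They were picked with the values of these same libraries already known, so their levels and differences are given as a description, without p-values. Peritoneal cells were washed out of 8-week-old mice and sequenced by Smart-seq2, a method for small amounts of polyadenylated RNA. There were 2 libraries from mice described as Irf8-deficient and given pristane (labelled Irf8KO), 2 from wild-type (WT) C57BL/6 mice given pristane and 1 from WT mice given phosphate-buffered saline (PBS). Pristane, a mineral oil component, causes a long sterile peritonitis in mice when injected. Irf8 is a transcription factor needed for monocyte and dendritic cell development, and mice without it accumulate granulocytes. No Irf8KO mice given PBS are among these libraries, so oil and genotype cannot be told apart in the comparison of Irf8KO pristane with WT PBS. The labels do not give the kind of Irf8 allele, whether it acts in all cells, the time after injection, or whether 2 replicates came from separate animals.

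Interleukin-6 is a cytokine of activated macrophages and stromal cells. It binds the receptor chain Il6ra, and the pair then engages gp130, encoded by Il6st, which activates STAT3 through Janus kinases. In liver this signal, together with interleukin-1, switches on the acute phase proteins, among them serum amyloid A, haptoglobin and orosomucoid. Mouse Saa3 differs from the liver forms in being made mainly outside the liver, by macrophages and other cells at inflamed sites. Haptoglobin (Hp) captures free haemoglobin and lipocalin 2 (Lcn2) captures bacterial siderophores, and both proteins are also stored in neutrophil granules.

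The table does not name its unit, and its values are read here as FPKM (fragment counts divided by transcript length and by library depth). They correspond to estimated totals of 2280000 to 4990000 assigned fragments per library. Irf8 itself stood at 120.5 and 59.4 FPKM in the Irf8KO-labelled libraries, against 63.3 and 48.7 FPKM in WT pristane and 32.4 FPKM in WT PBS. Irf8 RNA was thus not lower in the Irf8KO-labelled libraries, and a value for the whole gene says nothing about a deleted exon. Replicate 1 of the Irf8KO-labelled libraries stood apart in holding hepatocyte transcripts. The 10 hepatocyte markers summed to 61.7 FPKM in that library, with 1 marker at 0, against 1.74 FPKM in replicate 2, 0.148 and 0 FPKM in WT pristane and 0 FPKM in WT PBS. Without that library the log2(FPKM + 1) difference between Irf8KO and WT pristane was 0.17 for Il6ra, 0.21 for Il6st and 0.25 for Orm1, and those of the other 4 genes are given with their values.

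Saa3 was the most abundant transcript of all in both libraries labelled Irf8KO. It stood at 40842 and 36484 FPKM there, against 1337 and 628 FPKM in WT pristane and 4852 FPKM in WT PBS. The lower of the Irf8KO-labelled libraries was 27.3 times the higher WT pristane library, so the groups lay far apart, while the pairs differed within themselves by 1.12-fold in Irf8KO pristane and 2.13-fold in WT pristane. Saa3 alone made up 7.01% and 7.04% of summed FPKM in the Irf8KO-labelled libraries, against 0.276% and 0.139% in WT pristane and 1.03% in WT PBS. In rank among all rows it was 1 in each Irf8KO pristane library, 54 and 129 in WT pristane, and 7 in WT PBS. Saa3 was thus already abundant without oil. Its order over the groups differed from that of Il6, Hp and Lcn2: both WT pristane libraries were lower than the PBS library and both libraries labelled Irf8KO were higher.

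On the log2(FPKM + 1) scale, Saa3 differed by 5.40 ± 0.46 (SE) between Irf8KO pristane and WT pristane, the third highest difference among 11117 tested genes. A gene was tested if 1 library or more reached 1 FPKM. Without replicate 1 of the Irf8KO pair, which held the hepatocyte transcripts, the difference was 5.31. Between WT pristane and WT PBS it was −2.40 ± 0.56, and between Irf8KO pristane and WT PBS it was 2.99 ± 0.56. The SE of both PBS comparisons assumes that the single PBS library varied as the pristane libraries did. Of the related genes, Saa1 stood at 0.651 and 1.81 FPKM in Irf8KO pristane and was listed at 0 in the other 3 libraries, and Saa2 and Saa4 were listed at 0 in all 5. Fragments that match several of these similar genes could have been assigned to either.

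**Figure D1:**
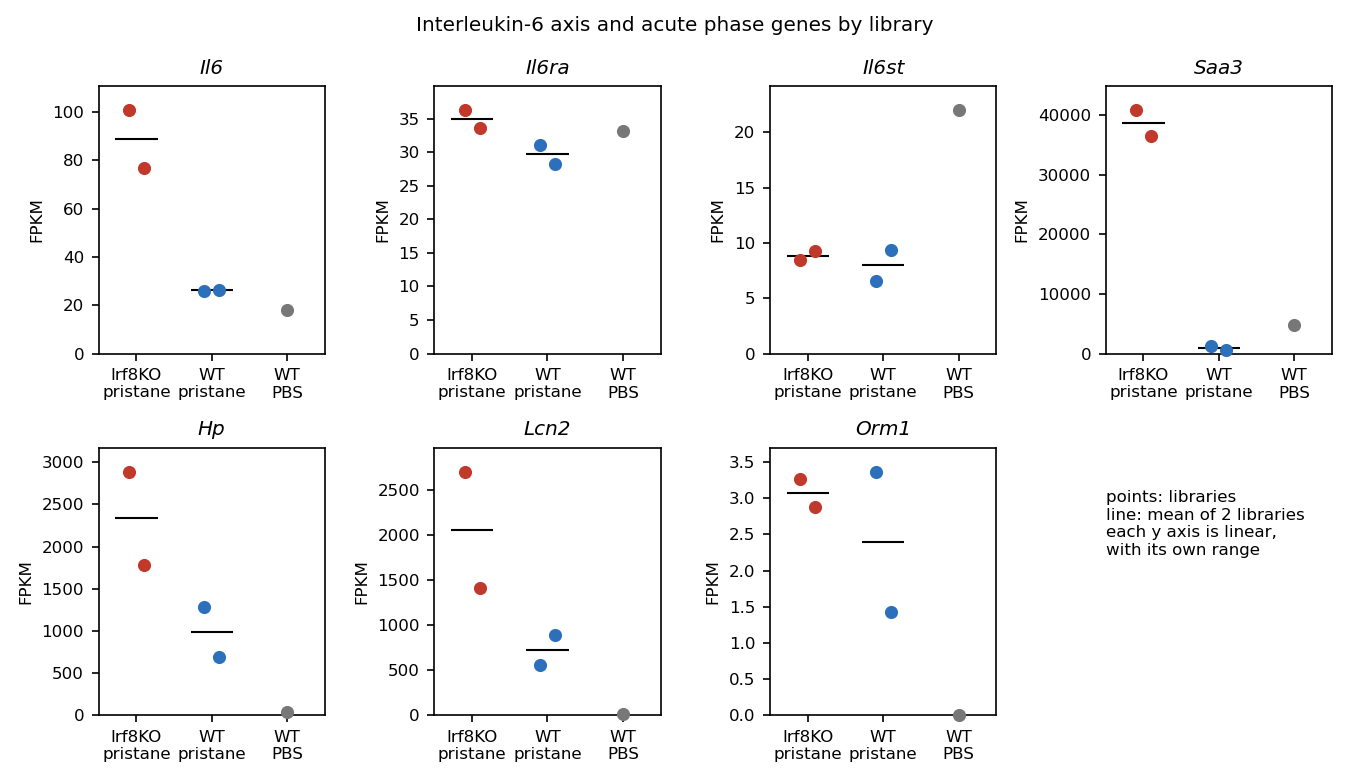
FPKM of the 7 genes in each library (points), with the mean of each pair (line), on linear axes of different range. Saa3 and Il6 stand highest in the Irf8KO-labelled libraries, Hp and Lcn2 are high in all 4 pristane libraries (552 to 2887 FPKM), and Il6st is highest with PBS (21.996 FPKM).

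Il6 was present in every library and highest in the Irf8KO-labelled libraries. It stood at 100.7 and 76.7 FPKM there, against 26.0 and 26.3 FPKM in WT pristane and 18.1 FPKM in WT PBS. The Irf8KO and WT pristane groups did not overlap, and the lower Irf8KO library was 2.92 times the higher WT one. The difference was 1.71 ± 0.20 (SE) on the log2 scale, and 1.52 without replicate 1 of the Irf8KO pair. WT pristane and WT PBS differed by 0.50 ± 0.24, a small step compared with that between the pristane groups. Il6 was far less abundant than Saa3: within a library Saa3 was 406 and 476 times Il6 in Irf8KO pristane, 51.5 and 23.9 times in WT pristane, and 267 times in WT PBS, in FPKM.

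The ligand-binding chain Il6ra was nearly level. It stood at 36.3 and 33.6 FPKM in Irf8KO pristane, 31.1 and 28.3 FPKM in WT pristane and 33.1 FPKM in WT PBS. The pristane groups did not overlap, but the difference was 0.23 ± 0.16 on the log2 scale, and 0.00 when each library was scaled to the same sum. Il6st, the signalling chain shared by most cytokines of the family, was highest with PBS. It stood at 8.42 and 9.26 FPKM in Irf8KO pristane, 6.56 and 9.39 FPKM in WT pristane and 21.996 FPKM in WT PBS. The pristane groups overlapped, with a difference of 0.15 ± 0.24, and WT pristane differed from WT PBS by −1.38 ± 0.29. In bulk RNA, fewer cells that carry a transcript and less transcript per cell cannot be told apart. Il6ra was 4.31 and 3.63 times Il6st in Irf8KO pristane and 4.75 and 3.01 times in WT pristane, against 1.51 times in WT PBS, in FPKM.

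Hp was low with PBS and abundant after pristane in both genotypes. It stood at 2887 and 1785 FPKM in Irf8KO pristane, against 1278 and 687 FPKM in WT pristane and 39.0 FPKM in WT PBS. The pristane groups did not overlap, although the lower Irf8KO library was only 1.40 times the higher WT one. The log2 difference between the pristane groups was 1.28 ± 0.43 (SE), and 0.93 without replicate 1 of the Irf8KO pair. Hp is also a major liver product, and the library with the hepatocyte transcripts had the higher Hp value of its pair. The albumin gene Alb stood at 25.6 and 0.446 FPKM in Irf8KO pristane and was listed at 0 in the other 3 libraries. The part of liver RNA in the Hp values was not tested. WT pristane differed from WT PBS by 4.55 ± 0.53.

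Lcn2 behaved much like Hp. It stood at 2706 and 1414 FPKM in Irf8KO pristane, against 552 and 891 FPKM in WT pristane and 9.03 FPKM in WT PBS. The lower Irf8KO library was 1.59 times the higher WT one, so the groups did not overlap. The log2 difference was 1.48 ± 0.44 (SE) between the pristane groups, and 1.01 without replicate 1 of the Irf8KO pair. Irf8KO pristane differed from WT PBS by 7.61 ± 0.54. The 9.03 FPKM with PBS corresponds to about 19 fragments, so the folds over PBS are imprecise.

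Orm1, which encodes the plasma protein orosomucoid 1, was barely detected. It stood at 3.27 and 2.88 FPKM in Irf8KO pristane, 3.37 and 1.43 FPKM in WT pristane, and was listed at 0 in WT PBS. These values correspond to about 13 and 8, 11 and 3, and 0 fragments. The pristane groups overlapped, the difference was 0.32 ± 0.35 on the log2 scale, and no difference between them was detectable at this depth. A value of 0 can be a failed estimate, so no fold over PBS is given. Orm3 was listed at 0 in all 4 pristane libraries and at 2.67 FPKM with PBS, and Orm2 at 0 throughout. The Orm genes are similar in sequence, so the split between them is uncertain.

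**Figure D2:**
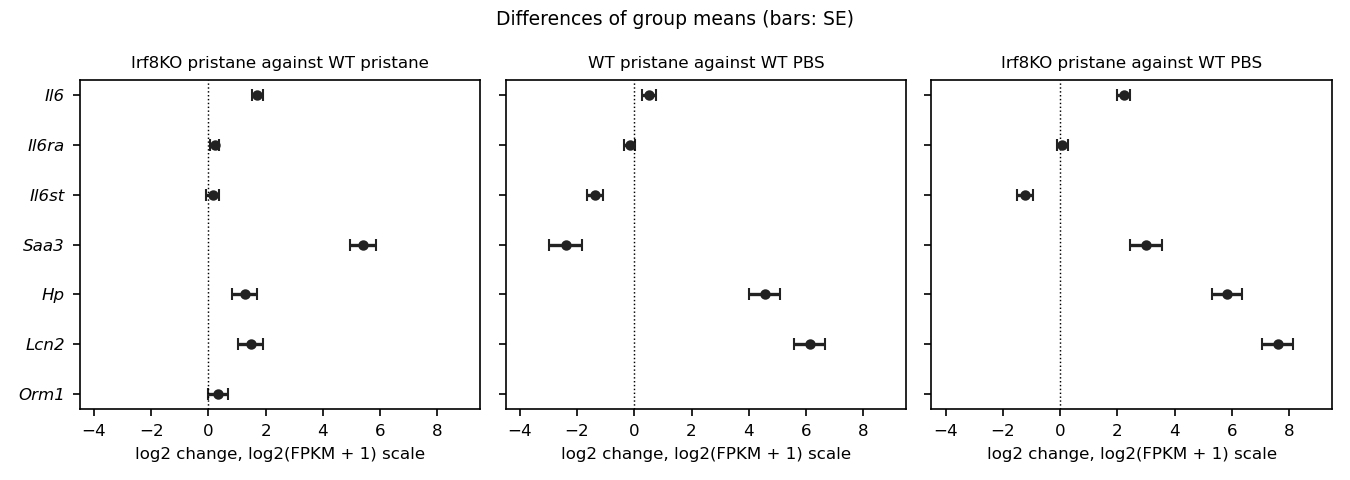
Difference in mean log2(FPKM + 1) of each of the 7 genes (points) with its SE (bars), 1 panel per comparison; Orm1 is left out where the PBS library is listed at 0. Saa3 lies at 5.40, −2.40 and 2.99 in the 3 panels, the only gene with values on both sides of 0 by more than 1.

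Saa3, Il6 and Lcn2 stood higher in the Irf8KO-labelled pair than in the WT pristane pair, and their promoters are shown for comparison of 3 elements known from acute phase gene control. RefSeq sequences (GRCm38.p6) were at hand for 5 of the 7 genes, and Hp and Orm1 were not among them. The 250 bases before the annotated start are printed 5′ to 3′ on the gene's strand. They lie at chr7:46715677-46715926 on the minus strand for Saa3, chr5:30012864-30013113 on the plus strand for Il6 and chr2:32387740-32387989 on the minus strand for Lcn2. Capitals mark matches to a C/EBP element (TTNNGCAA) or an NF-kB element (GGG, then 3 bases of any kind, then TTCC) on either strand.
Saa3: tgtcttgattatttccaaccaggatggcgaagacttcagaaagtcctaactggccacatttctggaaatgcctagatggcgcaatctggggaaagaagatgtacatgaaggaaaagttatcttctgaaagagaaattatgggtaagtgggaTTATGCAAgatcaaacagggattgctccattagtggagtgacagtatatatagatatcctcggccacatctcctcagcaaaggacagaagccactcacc
Il6: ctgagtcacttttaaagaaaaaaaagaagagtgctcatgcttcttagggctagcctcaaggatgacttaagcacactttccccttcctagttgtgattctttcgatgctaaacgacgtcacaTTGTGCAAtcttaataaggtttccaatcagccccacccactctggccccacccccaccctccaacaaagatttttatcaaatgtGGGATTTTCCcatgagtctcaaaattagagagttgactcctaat
Lcn2: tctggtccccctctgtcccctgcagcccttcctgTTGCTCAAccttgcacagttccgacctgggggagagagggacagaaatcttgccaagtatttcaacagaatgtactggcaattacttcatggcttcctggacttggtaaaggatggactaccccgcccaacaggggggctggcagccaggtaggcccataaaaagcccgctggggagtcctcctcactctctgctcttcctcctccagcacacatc

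Each of the 3 held 1 C/EBP match. It lay 99 to 92 bases before the start in Saa3 (TTATGCAA) and 128 to 121 bases before it in Il6 (TTGTGCAA). In Lcn2 it lay on the opposite strand, 216 to 209 bases before the start (printed as TTGCTCAA). Of 32536 distinct promoter stretches of the same length, 9.57% held this element. Il6 also held an NF-kB match, 44 to 35 bases before the start (GGGATTTTCC), an element found in 4.65% of the stretches. No match to a STAT element (TTCNNNGAA, in 7.04%) lay in these 3 windows, and the windows of Il6ra and Il6st held no match to any of the 3 elements. No 2 matches overlapped. The elements were chosen with these sequences in view, and a match is a run of letters, not evidence of binding.

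Across the 7 genes the order by level was the same in both libraries labelled Irf8KO. Saa3 came first, then Hp, Lcn2, Il6, Il6ra, Il6st and Orm1. Hp and Lcn2 were neighbours in the pristane libraries, and the difference between them was not tested. Hp was above Lcn2 in both Irf8KO libraries and in WT pristane replicate 1, and below it in WT pristane replicate 2. In both WT pristane libraries Il6ra lay above Il6, and in WT PBS the order was Saa3, Hp, Il6ra, Il6st, Il6 and Lcn2, with Orm1 at 0. Between Irf8KO and WT pristane 5 of the 7 genes stood higher without overlap (26.1% of all tested genes did), and the median log2 difference was 1.28, against 0.00 over all tested genes. Of the 7, 4 stood higher and 3 lower in both WT pristane libraries than in WT PBS (37.3% and 44.5% of tested genes did), and 6 stood higher and 1 lower in Irf8KO pristane than in WT PBS (40.7% and 46%). Both of these comparisons share the single PBS library. Since the 7 genes were chosen on these values, nothing is read from those counts.

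Profiles of other genes over the 5 libraries were ranked by the root mean square difference of log2(FPKM + 1), each gene centred on its own mean. The 3 genes nearest to Lcn2 were S100a8, S100a9 and Retnlg, at 0.34, 0.50 and 0.59, and all 3 stood on the list of neutrophil markers. Nearest to Hp were Cxcr2, Mmp9 and Chil1, at 0.18, 0.26 and 0.27, and the first 2 of these are neutrophil markers as well. Nearest to Saa3 were Serpinb2, Icam2 and F5, at 0.78, 0.79 and 0.88. Icam2 stood on the list of large peritoneal macrophage markers, with 357 and 402 FPKM in Irf8KO pristane, 27.3 and 13.4 FPKM in WT pristane and 195 FPKM in WT PBS. In both Irf8KO-labelled libraries Saa3 lay above all 3 of its neighbours on this scale. Nearest to Il6 were Plk1, Bmx and Fhl3, at 0.15, 0.16 and 0.18. Plk1 and Bmx reached no more than 5.28 FPKM, so their closeness to Il6 depends on the 1 added before taking logs. In FPKM, Plk1 stood at 5.28 and 5.17 in Irf8KO pristane against 0.209 in WT PBS, a wider step than that of Il6. Il6ra lay nearest to Exosc5, Sf3b5 and Ccdc47 (0.03 to 0.04), Il6st to Ganc, Zmym5 and Poli (0.07 to 0.08) and Orm1 to Mov10, Rhog and Slc39a13 (0.02 to 0.10). Ganc and Poli lay under 1 FPKM in every pristane library, so the added 1 shapes their profiles too. The distances of Orm1 rest on at most about 13 fragments in a library and on a PBS value of 0, so they are imprecise.

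**Figure D3:**
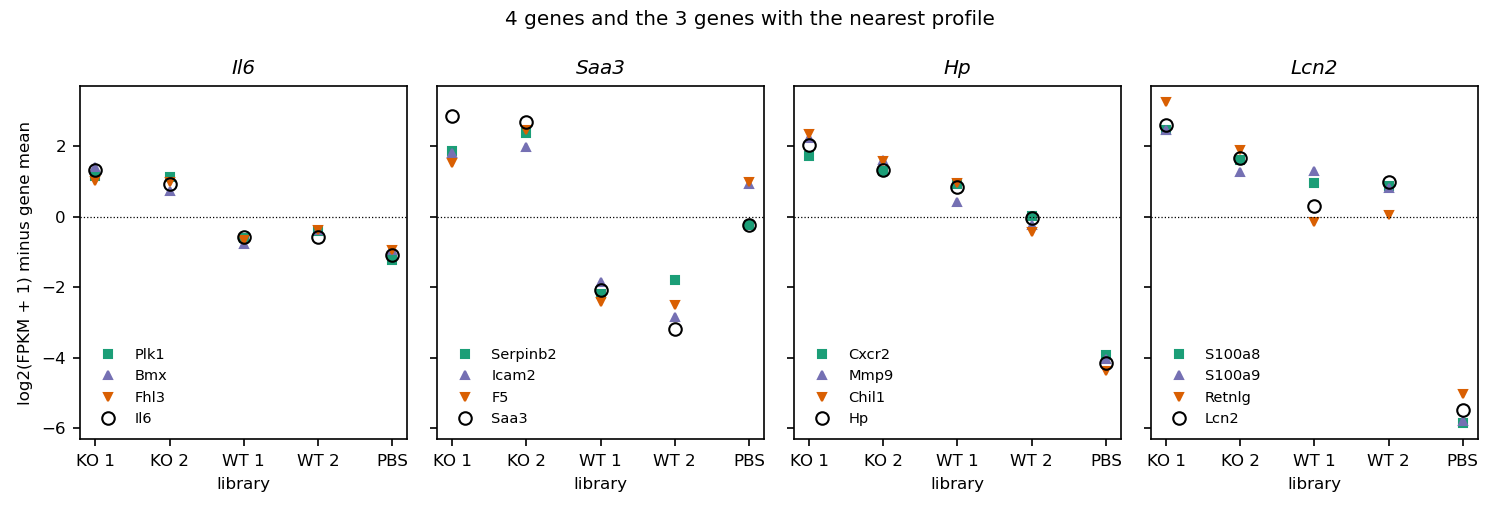
log2(FPKM + 1) of Il6, Saa3, Hp and Lcn2 (open circles) and of the 3 genes nearest to each (filled symbols), centred on each gene's mean, in the 5 libraries (KO, libraries labelled Irf8KO; WT, WT pristane). Hp and Lcn2 and their neighbours are low only with PBS, whereas Saa3 and its neighbours are lowest in WT pristane and intermediate with PBS.

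Cell marker levels were set beside these genes. The 15 neutrophil markers found in the table summed to 47410 and 24341 FPKM in Irf8KO pristane, 16868 and 15221 FPKM in WT pristane and 164 FPKM in WT PBS. Of the 15, 9 were higher and 2 lower in both Irf8KO-labelled libraries than in both WT pristane libraries (26.1% and 27.1% of all tested genes). Within a library Lcn2 was divided by each of these markers in turn. The ratio was higher in Irf8KO than in WT pristane without overlap for 4 of the 15 markers, lower for 5 and overlapping for 6. Over S100a8, the most abundant marker and also the gene whose profile was nearest to Lcn2, the ratio was 0.0919 and 0.0868 in Irf8KO pristane, 0.0532 and 0.0902 in WT pristane and 0.0976 in WT PBS. Over Camp, a gene of immature neutrophils named after its values were seen, it was 9.42 and 12.2 in Irf8KO pristane, against 87.3 and 84.0 in WT pristane. Hp over the same markers was higher for 6, lower for 4 and overlapping for 5. The direction of these ratios thus depended on the marker. No share over all genes was taken for such ratios, so nothing more is read from these counts. The part of neutrophil number in the Hp and Lcn2 values was not tested.

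The 12 large peritoneal macrophage markers summed to 3917 and 5558 FPKM in Irf8KO pristane, 1703 and 1151 FPKM in WT pristane and 3412 FPKM in WT PBS. Fn1 alone gave 2335 and 2859 FPKM of these sums in Irf8KO pristane, 1562 and 926 FPKM in WT pristane and 868 FPKM in WT PBS. The sums in WT pristane were thus mostly Fn1. Of the 12, 11 were higher and 1 lower in both libraries labelled Irf8KO than in both WT pristane libraries (26.1% and 27.1% of all tested genes). Saa3 was divided by each of the 11 markers that were above 0 in all pristane libraries. The ratio was higher in Irf8KO than in WT pristane without overlap for 6 markers, lower for 1 and overlapping for 4. Over Emr1, the gene of the macrophage antigen F4/80, it was 116 and 63.2 in Irf8KO pristane, 17.7 and 5.35 in WT pristane and 18.3 in WT PBS. Over Ltbp1, the marker with the opposite direction, it was 2899 and 1365 in Irf8KO pristane, 4616 and 3283 in WT pristane and 81.9 in WT PBS. Ltbp1 itself stood at only 0.290 and 0.191 FPKM in WT pristane, where 1 fragment per kilobase of transcript is worth 0.240 and 0.348 FPKM. A longer transcript holds more fragments at the same FPKM, and the fragments of Ltbp1 were not estimated. Timd4 (0.0957 FPKM in Irf8KO pristane replicate 1) and Garnl3 (0.272 FPKM in WT pristane replicate 1) were also this low. Ratios over Ltbp1, Timd4 and Garnl3 are thus imprecise, and these markers were named after their values were seen. Il6 over the same 11 markers was higher for 1, lower for 8 and overlapping for 2. All ratios of a gene share its own values, and no share over all genes was taken for such ratios. Nothing about Saa3 or Il6 is therefore read from these counts. Inflammatory monocyte markers summed to 429 and 248 FPKM in Irf8KO pristane, 1192 and 6136 FPKM in WT pristane and 842 FPKM in WT PBS. Single genes made up much of some sums: Chil3 gave 4000 FPKM in WT pristane replicate 2 and Plac8 gave 706 FPKM in WT PBS. By gene, 0 of the 10 were higher and 8 lower in both libraries labelled Irf8KO than in both WT pristane libraries (26.1% and 27.1% of all tested genes). Fibroblast and mesothelial markers summed to 27.1 and 83.7 FPKM in Irf8KO pristane, 59.4 and 49.7 FPKM in WT pristane and 7.68 FPKM in WT PBS. B cell markers summed to 185 and 99.2 FPKM in Irf8KO pristane, 39.5 and 10.4 FPKM in WT pristane and 2446 FPKM in WT PBS. Mast cell markers came to at most 4.50 FPKM in any pristane library, against 318 FPKM in WT PBS. T and natural killer cell markers came to 58.5 and 45.5 FPKM in Irf8KO pristane, 148 and 109 FPKM in WT pristane and 89.6 FPKM in WT PBS. The part of these cell types in the Saa3 and Il6 values was not tested.

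**Figure D4:**
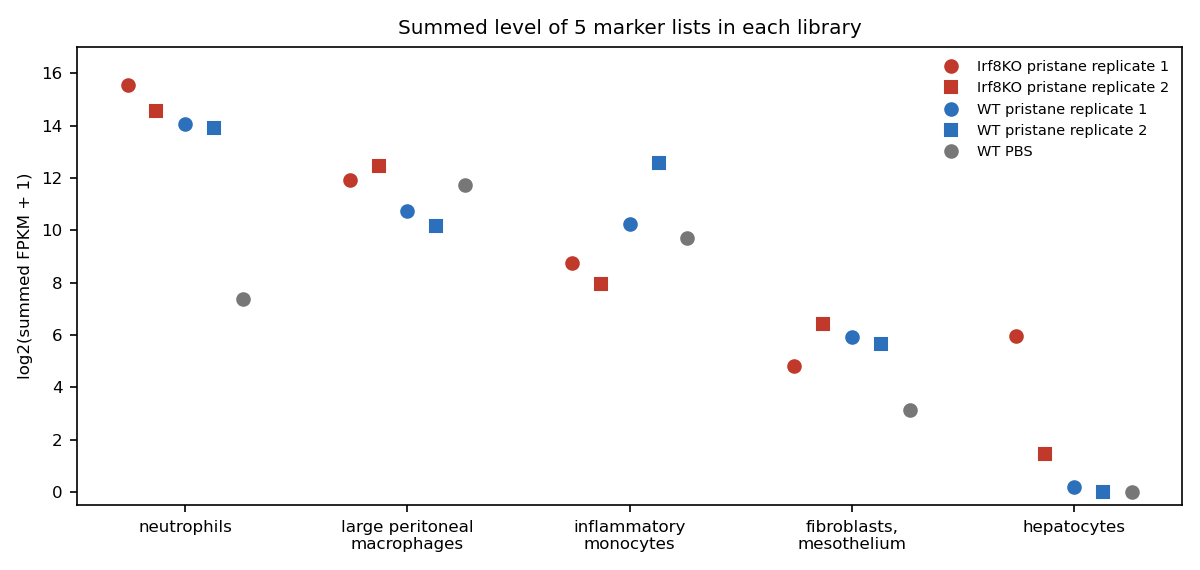
Summed FPKM of 5 marker lists in each library, as log2(sum + 1). Neutrophil markers are lowest with PBS (164 FPKM), large peritoneal macrophage markers are lowest in WT pristane (1703 and 1151 FPKM), and hepatocyte markers exceed 2 FPKM only in Irf8KO pristane replicate 1 (61.7 FPKM). Fn1 alone gives 1562 and 926 FPKM of the macrophage marker sums in WT pristane.

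Other genes of the pathway were taken from 5 lists, with 112 genes apart from the 7, of which 84 were tested. Between Irf8KO and WT pristane 0 of the 84 passed an adjusted p of 0.05 (limma with Benjamini-Hochberg adjustment; 0.027% of all tested genes passed, all of them lower), with 17, or 20.2%, at an unadjusted p under 0.05, against 20.6% of all tested genes, and the median log2 difference was −0.10, against 0.00 over all tested genes. With the tested genes limited to a mean of at least 5 FPKM, 4 of 55 passed (7.27%, against 4.11% of all genes tested that way). Among them were Lbp, the lipopolysaccharide-binding protein, and Lrg1, an inducible plasma glycoprotein, which were higher in Irf8KO pristane, and Cd36, a scavenger receptor, which was lower. Lbp stood at 35.0 and 44.9 FPKM in Irf8KO pristane, against 1.32 and 4.93 FPKM in WT pristane and 12.3 FPKM in WT PBS, and so shared the order of Saa3. Lrg1 stood at 705 and 668 FPKM in Irf8KO pristane, against 221 and 304 FPKM in WT pristane and 174 FPKM in WT PBS. Lbp was named after its values were seen, as was Cd36. 9 of the 24 tested genes of the acute phase list were higher in both libraries labelled Irf8KO than in both WT pristane libraries and 2 were lower (26.1% and 27.1% of all tested genes). Among the 9 were Saa1, Hpx and Fgg, which reached 1 FPKM only in libraries labelled Irf8KO and were listed at 0 in all others. They were thus tested only through the group where they are high, and nothing is read from this count. Fgg was named after its values were seen.

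Some of these acute phase genes were found almost only in Irf8KO pristane replicate 1, the library with hepatocyte transcripts. Serpina3k stood at 8.29 FPKM, Fgb at 4.84 FPKM and Hamp at 4.34 FPKM in that library, and each was listed at 0 in the other 4. Hpx, which encodes the haem carrier hemopexin, stood at 10.3 and 1.11 FPKM in Irf8KO pristane and was listed at 0 elsewhere. These 4 genes were chosen after their values were seen. Crp, Apcs and Ptx3, the pentraxins, were at or under 0.259 FPKM in every library, and were also chosen after their values were seen.

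No gene of the wider interleukin-6 family or of its signalling list passed between the pristane groups when all 11117 genes were tested, with 1 of 9 and 6 of 20 at an unadjusted p under 0.05 (limma; 20.6% of all tested genes). Osm, the family member with the highest level, stood at 115 and 108 FPKM in Irf8KO pristane, 132 and 239 FPKM in WT pristane and 163 FPKM in WT PBS. Ebi3, a subunit of interleukin-27, stood at 45.6 and 29.6 FPKM in Irf8KO pristane, 23.4 and 5.91 FPKM in WT pristane and 7.92 FPKM in WT PBS, with an adjusted p of 0.316 between the pristane groups (limma). Of the 20 signalling genes, 2 were higher and 11 lower in both libraries labelled Irf8KO than in both WT pristane libraries (26.1% and 27.1% of all tested genes), with a median log2 difference of −0.32. Socs3, the feedback inhibitor induced by gp130 signalling, stood at 96.3 and 90.2 FPKM in Irf8KO pristane, 133 and 195 FPKM in WT pristane and 88.9 FPKM in WT PBS, so it did not share the order of Il6. Socs3 was named after its values were seen.

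Between WT pristane and WT PBS, 10 of the 84 pathway genes passed as higher and 3 as lower (limma with Benjamini-Hochberg adjustment; 5.18% and 5.46% of tested genes), and the median log2 difference was 0.56, against −0.07 over all tested genes. The 3 include Orm3, which reached 1 FPKM only with PBS, was tested only through that library and is not read as a fall. In the list of genes that control Il6 and acute phase genes, which holds activators and inhibitors alike, 3 of 21 rose and 0 fell. Il1b, the interleukin-1 that cooperates with interleukin-6, stood at 2118 and 939 FPKM in WT pristane, against 17.7 FPKM in WT PBS (adjusted p = 0.0297). Its antagonist Il1rn rose by 5.84 ± 0.63 (SE) on the log2 scale (adjusted p = 0.0291), and the tumour necrosis factor receptor Tnfrsf1a by 1.62 ± 0.20 (adjusted p = 0.0316). Nfkbia, the inhibitor of NF-kB, was the most abundant gene of that list, with 2416 and 1876 FPKM in WT pristane, against 577 FPKM in WT PBS, and did not pass (adjusted p = 0.0569). With the tested genes limited to a mean of at least 5 FPKM, Nfkbia passed (limma, adjusted p = 0.0275). Tnf (adjusted p = 0.0234) and Il1a (adjusted p = 0.0326) then passed as well, both higher in WT pristane and named after their values were seen. Of the 20 signalling genes only Adam10 passed when all 11117 genes were tested. Adam10 encodes a protease that sheds membrane proteins including the interleukin-6 receptor, and rose by 1.26 ± 0.19 (adjusted p = 0.0396). With a mean of at least 5 FPKM, those that passed included Stat3 (0.99, limma, adjusted p = 0.0430) and Bcl3 (1.41, adjusted p = 0.0427). Stat3 and Bcl3 were named after their values were seen. None of the 9 tested genes of the interleukin-6 family passed, with 2 at an unadjusted p under 0.05 (33.8% of all tested genes).

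Of 10 tested receptors and partners of the encoded proteins, 4 rose and 0 fell in WT pristane (5.18% and 5.46% of all tested genes). Fpr2, the formyl peptide receptor that also binds serum amyloid A, stood at 73.0 and 53.7 FPKM in WT pristane, against 4.05 FPKM in WT PBS (adjusted p = 0.0331). Hmox1, the haem-degrading enzyme downstream of haptoglobin-mediated uptake, stood at 129 and 157 FPKM, against 22.9 FPKM (adjusted p = 0.0247). Mmp9, the gelatinase that binds lipocalin 2, rose by 4.13 ± 0.43 (adjusted p = 0.0288), and Tlr2, a receptor for bacterial lipoproteins, was the fourth. Cd163, the receptor for haptoglobin-haemoglobin complexes, stood at 0.102 and 4.41 FPKM in WT pristane and 1.51 FPKM in WT PBS, so its pair lay on both sides of the PBS library. Cd163 and Tlr2 were named after their values were seen. The neutrophil marker sum was higher in the same libraries, Mmp9 is itself one of those markers, and the part of neutrophil number in these differences was not tested.

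Of the 24 tested acute phase genes, 2 passed as higher and 3 as lower in WT pristane (5.18% and 5.46% of all tested genes). Complement C3 rose by 2.13 ± 0.38 (SE, adjusted p = 0.0492). Il1rap, the shared chain of interleukin-1 receptors, rose by 1.77 ± 0.28. Complement C4b fell to 0.901 and 4.69 FPKM in WT pristane, against 80.9 FPKM in WT PBS (adjusted p = 0.0494), and Cp, which encodes the copper oxidase ceruloplasmin, fell by 1.65 on the log2 scale. C4b was named after its values were seen. The third was Orm3, listed at 0 in all pristane libraries and not read as a fall. Cd14 and Lrg1 were the most abundant of the list and did not pass (adjusted p = 0.104 and 0.230). Between Irf8KO pristane and WT PBS, 10 of the 84 rose and 1, Orm3, was lower (3.81% and 4.72% of tested genes, 8.54% together), with Lrg1 (1.98 ± 0.28, adjusted p = 0.0399) and the metallothionein Mt2 (2.76 ± 0.42, adjusted p = 0.0430) among the 3 acute phase genes that rose. Mt2 was named after its values were seen. With no filter on low values, Tnfrsf1a, Hmox1 and Orm3 were the 3 pathway genes still past the threshold between WT pristane and WT PBS, and Tnfrsf1a, Hmox1, Mmp9 and Orm3 the 4 between Irf8KO pristane and WT PBS. With any 1 of the 4 pristane libraries left out, 0 pathway genes passed in any comparison, with 29 to 42 of the 84, and 2757 to 3749 of all 11117 genes, at an unadjusted p under 0.05 between WT pristane and WT PBS.

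**Figure D5:**
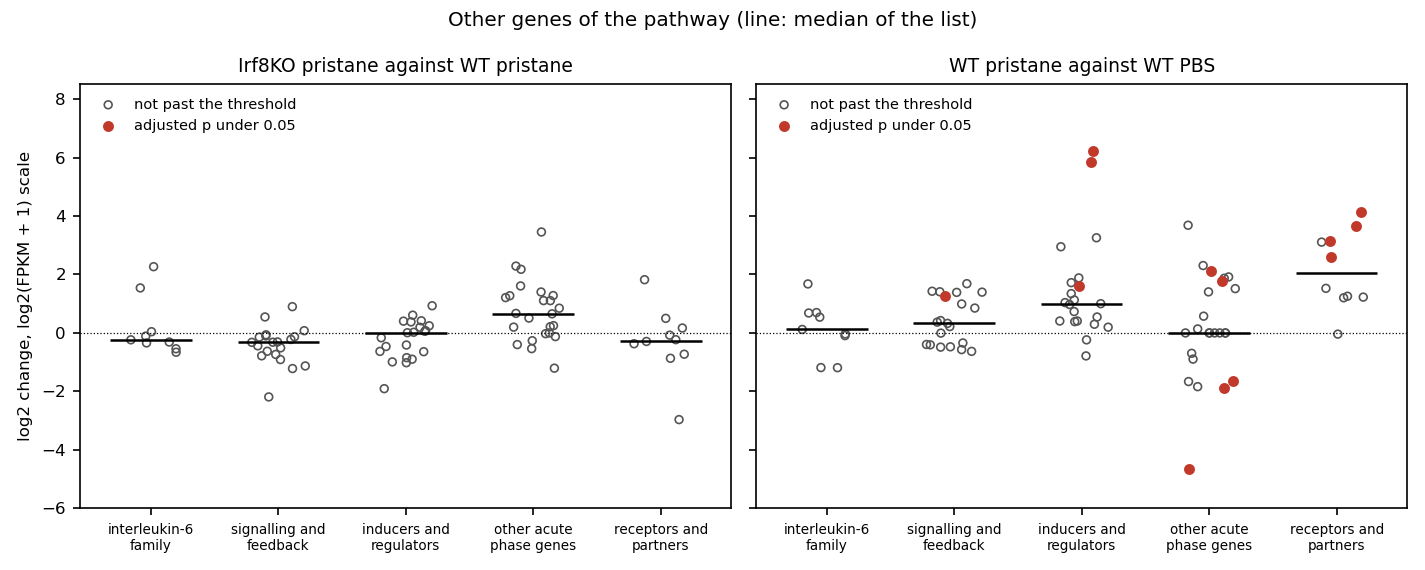
log2 change of each tested gene of the 5 pathway lists (points; red, adjusted p under 0.05) and the median of each list (line), between Irf8KO and WT pristane (left) and between WT pristane and WT PBS (right). No gene is red on the left and 13 are red on the right, 10 above and 3 below 0, with Orm3 among the 3.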

How the data were processed

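RNA of peritoneal lavage cells was measured in 5 libraries. The authors deposited 1 table named as counts. Its values were read as FPKM, which the authors do not state, because they are not whole numbers and the submitters' processing notes list Cufflinks 2.2.1, Cuffnorm, TopHat2 2.0.10 and BWA without their roles. The scaling between libraries is not stated, nor is a build or annotation. The table had 22815 rows, 27 of them with symbols turned into dates.

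Depth was estimated from FPKM steps: values under 0.3 FPKM of genes with 1 GENCODE M21 transcript of at least 1000 bases, times length, peaked at the worth of 1 fragment, and 66.9% to 81.7% of products rounding to 1 or 2 fragments lay within 0.15 of a whole number. Fragments of single genes used the median transcript length.

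The 11117 genes that reached 1 FPKM somewhere were fitted by limma-trend (limma 3.58.1, R 4.3.3), with log2(FPKM + 1) as response and a mean for each of the 3 groups. P-values are 2-sided, Benjamini-Hochberg adjusted over the 11117 genes, and measure only the spread between these libraries, which may be technical. Residual degrees of freedom were 2 and prior ones 1.99. The 7 genes, the gene lists and the tests were chosen with earlier results of these data known. Named genes were the 7, up to 3 genes per list and comparison past the threshold, the 2 most abundant of each list, and the 3 nearest profiles; others are marked as chosen after their values were seen, and 1 gene is not reported here. Alternatives were another pseudocount (0.1), other filters, other scalings, a replicate block and leaving out each pristane library. The ratios to single markers were chosen after the values were seen.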

Additional observations from a re-analysis of the deposited data

How the results depend on the processing

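Between Irf8KO and WT pristane, Saa3, Il6, Hp and Lcn2 differed by 4.85 to 5.94, 1.50 to 1.91, 0.83 to 1.72 and 1.01 to 1.95 on the log2 scale. These ranges cover the 7 alternatives that could change the size of a difference (pseudocount, both scalings and each pristane library left out). The groups did not overlap for these genes, so leaving out 1 library could not change the sign. The differences of Il6st (−0.08 to 0.38) and Orm1 (−0.10 to 0.74) changed sign. Between WT pristane and WT PBS, Saa3 stayed between −2.95 and −1.86 under the 5 that could change it. The filters and, with 2 libraries a group, the replicate block and the fit without PBS leave these differences as they are by construction. Scaling each library to the same sum, in which Saa3 itself takes a large share of Irf8KO pristane, put Il6 at 1.50 between Irf8KO and WT pristane. Of 119 values of the 7 genes not fixed by construction, 111 moved by less than 1 SD of the libraries within groups. The other 8 moved by more, 4 of them Orm1 against the PBS library listed at 0. Median-of-ratios scaling shifted the libraries by only −0.0233 to 0.0182 on the log2 scale, so it could hardly move a value. Leaving out 1 library of a pair cannot move a difference by more than that SD. Nothing is therefore read from the 111.

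Between Irf8KO and WT pristane 3 genes of 11117 passed the threshold. That count was 0 with a pseudocount of 0.1 (2234 genes at an unadjusted p under 0.05), 0 with libraries scaled to the same sum (2419) and 242 with a mean of at least 5 FPKM (105 higher, 137 lower). The labels tie same-numbered replicates of the 2 pristane groups by nothing but the number. The within-pair differences correlated at 0.0448, which cannot show whether such replicates were prepared together. The replicate block over the 4 pristane libraries gave 0 genes past the threshold (2085 at an unadjusted p under 0.05). Without 1 pristane library the counts ran from 0 to 0 in all 3 comparisons, for all genes and for pathway genes, with 1022 to 3984 of all genes at an unadjusted p under 0.05; these fits have fewer residual degrees of freedom and assume that the lone library varies like the others. Pathway genes past the threshold numbered 4 between Irf8KO and WT pristane with a mean of at least 5 FPKM. Between WT pristane and WT PBS they numbered 3 with no filter and 23 with a mean of at least 5 FPKM, and between Irf8KO pristane and WT PBS 4 and 19. The cause was not tested. Of the values of other named genes under the alternatives, 265 lost and 24 gained a call and 1253 did neither.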
